A study of Mus musculus with 3 samples.

Results

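Serpina3f, Serpina3g and Serpina3n are neighbouring mouse genes that code for serpins of the antichymotrypsin group. They are 3 of the 32285 genes counted in the libraries and 3 of the 10 Serpina3 genes among them, and they were taken by their symbols. Serpina3g was chosen by its measured UMI level in these same data, which was low in the 30 h library of lung endothelial cells (ECs), and Serpina3f and Serpina3n were taken as similar copies. The 30 h values below are therefore a description of how the genes were chosen, and carry no test.

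Lung ECs of wild-type C57BL/6 mice were measured in 3 droplet libraries of single-cell 3′ RNA, 1 per group. The control mice received PBS through the tail vein and were taken after 6 h. The mice of the other groups received 200000 B16-F10 melanoma cells in 100 µl and were taken after 6 h or 30 h. Cells were pooled from 2 mice per treatment by the labels, while the study's methods give a larger number, and Pecam1+ Ptprc- cells were collected by flow cytometry once the lungs had been digested with collagenase. By its label, the 6 h library also received sorted melanoma cells. With 1 library per group no difference could be tested, and since no PBS library was taken at 30 h, time after injection and the presence of melanoma cells cannot be told apart there.

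Serpins trap proteases with an exposed reactive centre loop, which the protease cuts and which then holds it in an inactive complex. Humans carry a single SERPINA3 gene for antichymotrypsin, whereas the mouse has a cluster of copies whose loops have diverged. Serpina3g, also called Spi2A, stays inside the cell, inhibits cysteine cathepsins that leak from lysosomes, and is known as a target of NF-κB and of interferon gamma. Serpina3n is secreted, is induced in the acute phase response, and inhibits granzyme B and leukocyte elastase. Less is known of Serpina3f.

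All 3 genes lie on the plus strand of chromosome 12 (GRCm38, GENCODE M21). Serpina3f (ENSMUSG00000066363) spans 104214544 to 104221129, and Serpina3g (ENSMUSG00000041481) spans 104236245 to 104241939 and starts 15116 bases after the end of Serpina3f. Serpina3n (ENSMUSG00000021091) spans 104406729 to 104414329, 164790 bases beyond the end of Serpina3g. Serpina3i, Serpina3j, Serpina3k and Serpina3m lie in that interval. The annotated coding sequences of Serpina3f and Serpina3g were identical at 85.6% of aligned bases, those of Serpina3f and Serpina3n at 84.7%, and those of Serpina3g and Serpina3n at 84.3%. Serpina3f was closer to Serpina3i, at 91.0%, than to either of the others. The coding part annotated for Serpina3g was short, at 744 bases.

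The reactive centre loop was the stretch in which the copies differed more. Identity in the loop was 66.7% between Serpina3f and Serpina3g, 64.1% between Serpina3f and Serpina3n and 61.3% between Serpina3g and Serpina3n. The coding bases of the loop are shown because they set the genes apart as inhibitors. Each lies in the last exon (exon 6 of Serpina3f, exon 5 of the others) on the plus strand of GRCm38, and capitals mark bases that differ from Serpina3n in the alignment.
Serpina3n loop, chr12:104413448-104413522: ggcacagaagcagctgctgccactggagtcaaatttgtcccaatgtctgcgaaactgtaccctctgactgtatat
Serpina3g loop, chr12:104241072-104241146: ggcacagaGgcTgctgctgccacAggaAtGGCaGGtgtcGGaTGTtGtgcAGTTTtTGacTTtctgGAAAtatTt
Serpina3f loop, chr12:104220245-104220322: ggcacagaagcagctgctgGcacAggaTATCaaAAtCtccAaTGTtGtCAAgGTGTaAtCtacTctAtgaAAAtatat
Of the 75 bases of the Serpina3g loop, 29 were marked, and of the 78 bases of the Serpina3f loop, 28. The capitals are sparse at the 5′ end, the hinge of the loop, and dense after it.

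The libraries read 3′ ends, so the end of each transcript was compared, though whether intronic reads were counted too is not known. Over the last 500 transcript bases, identity was 86.1% between Serpina3f and Serpina3g, 70.3% between Serpina3f and Serpina3n and 72.8% between Serpina3g and Serpina3n. The transcript read has 89 bases in the study's methods. Of the 412 windows of that length in the last 500 bases of each copy, 0 were shared exactly with another of the 10 Serpina3 genes. Each copy was represented by its transcript with the longest coding part, and its introns and other transcript ends were not examined. Reads with mismatches could still be placed on a copy, and this was not tested.

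The promoters of the genes that moved together are shown beside that of Serpina3n, from RefSeq (GRCm38.p6), which held an entry for each of the 3. Each sequence is the 160 bases before the start site on the plus strand, for Serpina3f before the more upstream of its start sites. Capitals mark matches, on either strand, to a GAS element (TTCNNNGAA, the same letters on both strands), to an interferon regulatory factor core (AANNGAAA) or to the NF-κB consensus.
Serpina3f promoter, chr12:104214384-104214543: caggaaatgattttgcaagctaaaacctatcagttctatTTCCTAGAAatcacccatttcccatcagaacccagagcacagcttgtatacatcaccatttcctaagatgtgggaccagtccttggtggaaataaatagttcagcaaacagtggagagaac
Serpina3g promoter, chr12:104235987-104236146: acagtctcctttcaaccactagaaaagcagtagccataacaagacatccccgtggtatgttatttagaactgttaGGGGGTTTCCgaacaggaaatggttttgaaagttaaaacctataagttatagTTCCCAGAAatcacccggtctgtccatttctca
Serpina3n promoter, chr12:104406548-104406707: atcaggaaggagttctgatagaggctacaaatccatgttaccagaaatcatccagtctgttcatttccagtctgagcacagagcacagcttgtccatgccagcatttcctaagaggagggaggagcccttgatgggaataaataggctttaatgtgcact
A GAS element stood in Serpina3f and Serpina3g, and an NF-κB match stood upstream of it in Serpina3g. Serpina3n held no match in this window. Serpina3i, a copy with at most 29 endothelial UMIs in a library, held both a GAS element and an NF-κB match before its start as well. Over the full entries, which run past the start site, 8.47% of all 27025 promoters in the table held a GAS element, 24.2% the interferon regulatory factor core and 8.18% the NF-κB consensus. A match describes letters and not a bound site.

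The libraries held 140601123, 132566934 and 124085451 UMIs (control, 6 h and 30 h), a UMI being a tag that marks 1 captured RNA molecule. Barcodes with 1000 to 5000 detected genes, under 20% mitochondrial UMIs and at least 2 UMIs of Pecam1 and Cdh5 counted as endothelial, which gave 11231, 10583 and 9278 barcodes with median depths of 7782, 8033 and 8676 UMIs. Pecam1 was detected in 97.9% to 98.5% of them. Pairs of libraries shared 22 to 38 endothelial barcode sequences. Marker gates set 7367, 7181 and 5645 barcodes as general capillary (gCap), 1805, 1520 and 1757 as aerocytes (aCap, the capillary cells of gas exchange), 426, 389 and 462 as artery and 757, 644 and 592 as vein. A lymphatic gate (LEC) held 42, 29 and 24 barcodes. Levels are CPM, the UMIs of a gene scaled to a common total of all UMIs of the same barcodes. Brackets hold exact 95% intervals that cover counting error only, not the spread between barcodes or mice. In endothelial barcodes thinned to a common depth, the variance of UMIs over their mean was 1.67, 1.98 and 1.61 for Serpina3g. It was 1.36, 1.42 and 1.59 for Serpina3f and 1.77, 2.74 and 1.34 for Serpina3n. Counting error alone gives a variance equal to the mean, so intervals of levels and their ratios are too narrow for sampling of barcodes. Where such intervals overlap or stand apart below, this refers to counting error only.

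Serpina3g, the intracellular member, was higher at 6 h and lower at 30 h than in the control. Its level was 38.7 CPM [37.4 to 40.0] in the control, 65.6 [63.9 to 67.3] at 6 h and 10.5 [9.78 to 11.2] at 30 h, from 3514, 5732 and 853 UMIs. The 3 intervals did not overlap. The log2 ratio to the control was +0.76 [+0.70 to +0.82] at 6 h and -1.89 [-2.00 to -1.78] at 30 h, which is 3.69-fold lower, and between 6 h and 30 h the level was 6.27-fold lower.

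The share of endothelial barcodes with a Serpina3g UMI was 14.0%, 19.9% and 5.04%. Thinned to 2000 UMIs each, with 195, 197 and 111 shallower barcodes left out, the shares were 5.62%, 8.92% and 1.52%, in the same order. For comparison, barcodes with 3 or more fibroblast markers and almost no Pecam1 and Cdh5 held a Serpina3g UMI in 1 of 28, 2 of 30 and 0 of 20 cases, at median depths of 8484, 5092 and 10921 UMIs. In barcodes that passed the lymphatic gate, alone or with another gate, the count was 4 of 76, 4 of 56 and 0 of 55. As point values the shares over all ECs lay above both references in each library. The references are small, and their upper bounds reached 12.9%, 17.3% and 6.49% in the lymphatic set and 18.3%, 22.1% and 16.8% in the fibroblast reference, so the gCap shares of 11.3%, 17.7% and 2.89% lay within the fibroblast bound in each library and within the lymphatic bound in the control and at 30 h.

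Serpina3g was lower at 30 h in every blood vessel gate, and most in gCap. In gCap it stood at 31.1 CPM in the control, 58.5 at 6 h and 5.42 at 30 h. The log2 ratios in gCap were +0.91 [+0.82 to +0.99] at 6 h and -2.52 [-2.72 to -2.33] at 30 h, or 5.75-fold lower. In aCap the levels were 31.5, 51.6 and 12.2 CPM, with log2 ratios of +0.71 [+0.55 to +0.87] and -1.37 [-1.60 to -1.15]. The log2 ratio of aCap over gCap was +0.02 [-0.12 to +0.15] in the control, -0.18 [-0.30 to -0.07] at 6 h and +1.17 [+0.90 to +1.43] at 30 h, so the capillary gates were level in the control, gCap stood slightly higher at 6 h, and aCap stood 2.25-fold higher at 30 h.

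Large vessels held more Serpina3g than capillaries in each library. In artery the levels were 73.2, 127 and 23.0 CPM, with log2 ratios of +0.79 [+0.57 to +1.01] and -1.67 [-2.02 to -1.33]. In vein they were 81.3, 117 and 24.4 CPM, with log2 ratios of +0.52 [+0.36 to +0.68] and -1.74 [-2.01 to -1.47]. Artery and vein did not differ beyond their intervals in any library, and gCap and aCap did not in the control. In the 30 h library the order ran vein, artery, aCap and gCap, and only the step between vein and artery lay within counting error.

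**Figure D1:**
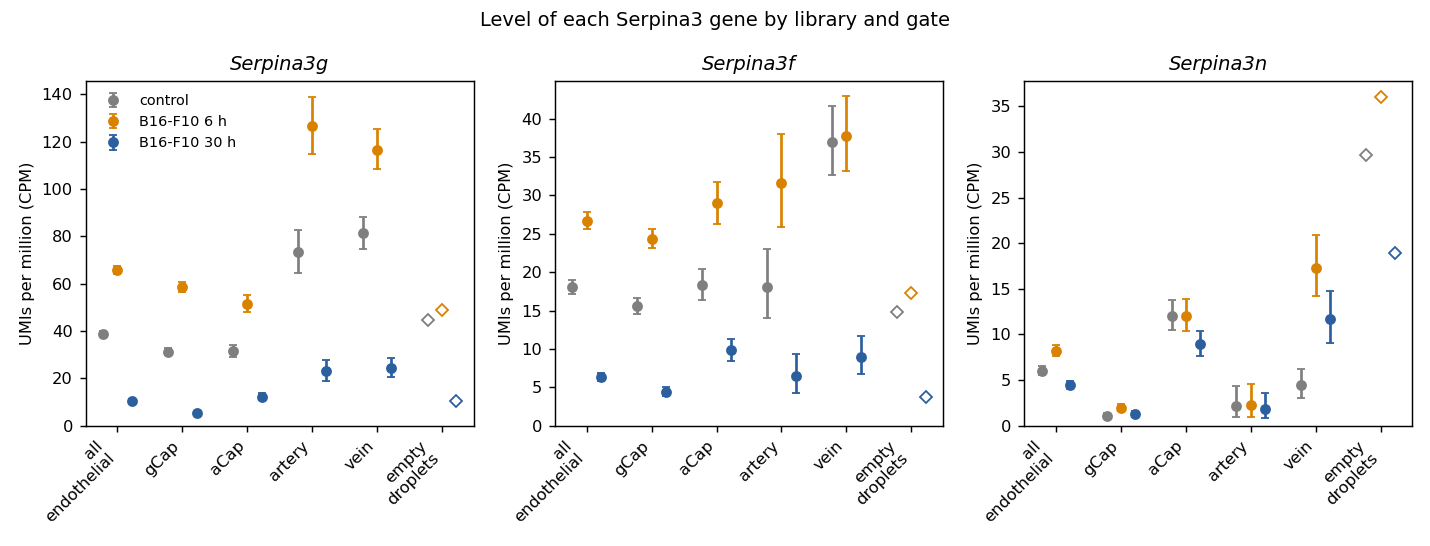
Levels of Serpina3g, Serpina3f and Serpina3n in CPM (linear axes that start at 0, 1 scale per gene) for the 3 libraries over all endothelial barcodes, 4 gates and empty droplets. Bars are exact 95% counting intervals and diamonds are empty droplets. Serpina3g and Serpina3f stand lowest at 30 h in each gate. Of the 4 gates Serpina3n is highest in aCap in the control and in vein at 6 h and 30 h, and its level in empty droplets lies above all 4.

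Within free RNA Serpina3g was lower at 30 h too, though the empty droplets held more UMIs in all at 30 h (876994, 694224 and 2637032). In empty droplets of 10 to 100 UMIs Serpina3g stood at 44.5 CPM [31.6 to 60.8], 49.0 [33.9 to 68.4] and 10.2 [6.75 to 14.9], so the control and 6 h were not told apart there, and the 30 h value was 1.89-fold the level of gCap. When 10% of that profile was subtracted from the endothelial sum, the 6 h ratio became +0.83. How much of the counts in a gate is free RNA was not tested.

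Markers of other cells differed between the libraries too, in several orders. The summed level of 5 epithelial markers in endothelial barcodes was 762, 565 and 348 CPM, with 2 or more of them in 41.1%, 19.3% and 13.1% of barcodes. The summed level of 8 leukocyte markers in endothelial barcodes was 88.7, 135 and 68.4 CPM, and that of 8 melanoma markers was 23.5, 40.5 and 20.7 CPM. For 5 platelet markers it was 146, 178 and 146 CPM. Fibroblast markers (31.2, 23.4 and 30.3 CPM) and pericyte markers (68.6, 54.4 and 67.7 CPM), 6 of each, were lowest at 6 h. Leukocyte reference barcodes (7, 35 and 17 of them) held 0, 5 and 3 Serpina3g UMIs, or 0, 14.0 and 16.6 CPM. As a point value the last, with a UMI in 2 of 17 barcodes, stood above the 10.5 CPM over all ECs at 30 h. Its interval [3.42 to 48.4] included that level. Without endothelial barcodes that held 2 or more markers of any 1 other type, 5788, 7072 and 6617 barcodes were left and Serpina3g stood at 39.5, 65.5 and 11.2 CPM.

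Serpina3f had the same order of libraries as Serpina3g. It stood at 18.1 CPM [17.2 to 19.0] in the control, 26.7 [25.6 to 27.8] at 6 h and 6.33 [5.80 to 6.90] at 30 h, from 1641, 2333 and 516 UMIs. The log2 ratios to the control were +0.56 [+0.47 to +0.66] and -1.51 [-1.66 to -1.37], the latter 2.85-fold lower. A UMI was found in 8.33%, 11.5% and 3.59% of barcodes, and in 2.76%, 4.39% and 1.09% after thinning. The fibroblast reference held 0 Serpina3f UMIs in each library, and empty droplets held 14.8, 17.3 and 3.79 CPM.

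Serpina3f was highest in vein in the control, and artery did not stand above the capillaries. In the control, vein stood highest at 36.9 CPM [32.6 to 41.6], and aCap (18.3), artery (18.1) and gCap (15.5) followed. The log2 ratio of aCap over gCap was +0.23 [+0.05 to +0.42], so aCap stood slightly higher, while the interval of artery overlapped both. In vein the level at 6 h was 37.8 CPM, a log2 ratio of +0.03 [-0.23 to +0.29], whereas in gCap it was 24.4 CPM, a ratio of +0.65 [+0.53 to +0.77]. The intervals for vein and gCap did not overlap. In artery the levels were 18.1, 31.6 and 6.43 CPM, and in aCap 18.3, 28.9 and 9.82 CPM.

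At 30 h the order of the gates changed for Serpina3f. Vein stood at 8.97 CPM, a log2 ratio to the control of -2.04 [-2.49 to -1.61], and gCap at 4.42 CPM, a ratio of -1.81 [-2.04 to -1.59]. In aCap the ratio was -0.90 [-1.16 to -0.63], so that aCap stood highest of the 4 gates, though its interval overlapped those of vein and artery. In artery, with 28 UMIs, the ratio was -1.49 [-2.18 to -0.83].

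The balance of the copies differed between vessel types. For each Serpina3f UMI the control library held 2.14 Serpina3g UMIs [2.02 to 2.27], the 6 h library 2.46 [2.34 to 2.58] and the 30 h library 1.65 [1.48 to 1.85]. In gCap the ratio was 2.01, 2.40 and 1.23, so that at 30 h the copies were nearly level [1.01 to 1.48]. In artery it was 4.05 [3.08 to 5.38], 4.01 [3.25 to 4.99] and 3.57 [2.33 to 5.64], the highest point value of the 4 gates in each library, though at 6 h and 30 h its interval overlapped that of vein. In vein the ratio was 2.20, 3.08 and 2.72, and in aCap 1.72, 1.78 and 1.24. Both counts come from the same barcodes, so these ratios do not depend on scaling.

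**Figure D2:**
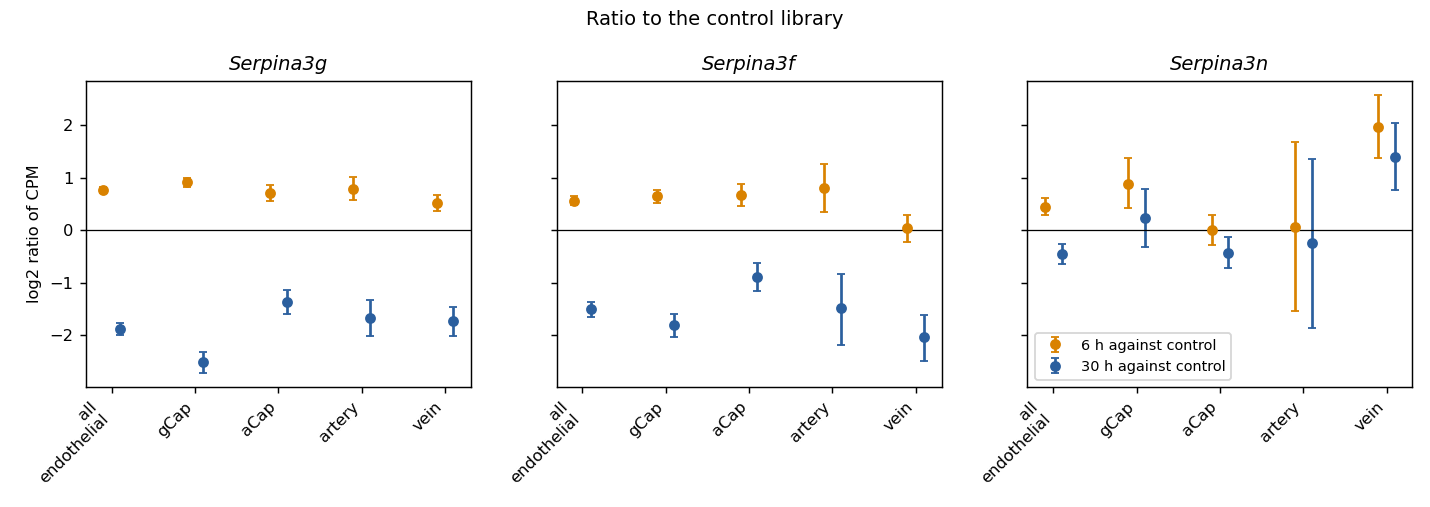
Log2 ratios of CPM to the control library for Serpina3g, Serpina3f and Serpina3n at 6 h and 30 h over all endothelial barcodes and 4 gates, with exact 95% counting intervals. For Serpina3g and Serpina3f the 30 h points lie below 0 in each gate, and for Serpina3n the vein points lie above 0 at both times.

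Serpina3n, the secreted member, was rare in blood vessel ECs. Over all ECs it had the same order of libraries as the other members with smaller ratios, while its gates differed from each other. It stood at 6.03 CPM [5.54 to 6.56] in the control, 8.23 [7.64 to 8.86] at 6 h and 4.42 [3.97 to 4.90] at 30 h, from 548, 719 and 360 UMIs in 2.40%, 2.98% and 2.05% of barcodes. The log2 ratios were +0.45 [+0.29 to +0.61] and -0.45 [-0.65 to -0.25]. Empty droplets held 29.6, 36.0 and 19.0 CPM, above the endothelial level in each library. The fibroblast reference barcodes held 304, 372 and 571 CPM, with a UMI in 60.7%, 56.7% and 65.0% of 28, 30 and 20 barcodes.

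Among blood vessel gates, aerocytes held the most Serpina3n in the control. In aCap it stood at 12.0, 12.0 and 8.93 CPM, with log2 ratios of 0.00 [-0.29 to +0.29] and -0.43 [-0.73 to -0.14]. In gCap it stood at 1.05, 1.94 and 1.24 CPM, from 58, 110 and 57 UMIs, so that in the control aCap was 11.4-fold above gCap. In artery 8 UMIs were counted in each library. The gCap and artery levels lay far below those in empty droplets.

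In vein the level of Serpina3n was 4.44 CPM in the control, 17.3 at 6 h and 11.7 at 30 h, with log2 ratios of +1.96 [+1.38 to +2.58] and +1.39 [+0.77 to +2.05]. Vein-gated barcodes that also held 2 or more of 6 fibroblast markers did not become more numerous, at 72 of 757, 54 of 644 and 52 of 592, but they carried 40.6%, 61.1% and 76.8% of the Serpina3n UMIs of vein. Without them vein stood at 2.93 [1.77 to 4.58], 7.33 [5.28 to 9.91] and 2.99 [1.71 to 4.85] CPM, so the 30 h level no longer stood above the control. Over all ECs, barcodes with 2 or more fibroblast markers numbered 210 of 11231, 163 of 10583 and 190 of 9278, a smaller share than in vein in each library. The vein gate rests on Slc6a2, Car8, Bgn, Nr2f2 and Dnm3, and whether it draws in such barcodes was not tested.

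The same barcodes weighed on the sum over all ECs. Those with 2 or more fibroblast markers held 46, 203 and 101 Serpina3n UMIs, or 8.39%, 28.2% and 28.1% of all. A single 6 h barcode held 73 of them and carried 5 of the 6 fibroblast markers and 21 UMIs of Pecam1 and Cdh5. Without such barcodes the level over all ECs was 5.66, 6.02 and 3.26 CPM, where the 6 h library no longer stood apart from the control.

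In the control and at 6 h lymphatic ECs, which line the vessels that drain the tissue and carry Prox1 and Mmrn1, held far more Serpina3n than the blood vessel gates, while at 30 h their interval included the levels of vein and aCap. Barcodes with the lymphatic gate alone held 35, 57 and 3 UMIs, or 120.5 CPM [83.9 to 168], 276 [209 to 358] and 13.7 [2.83 to 40.1], in 10 of 42, 14 of 29 and 3 of 24 barcodes. Each group has fewer than 50 barcodes. A further 34, 27 and 31 barcodes passed the lymphatic gate together with another gate and were set as mixed. Over all barcodes that passed the lymphatic gate, a set chosen after its values were seen, 76, 56 and 55 barcodes held 169, 120 and 6 UMIs.

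In that wider lymphatic set Serpina3n stood at 263 CPM [225 to 305] in the control, 263 [218 to 314] at 6 h and 11.03 [4.05 to 24.0] at 30 h. A UMI was found in 30 of 76, 28 of 56 and 5 of 55 barcodes, at median depths of 8146, 7925 and 9284 UMIs. The log2 ratio to the control was 0.00 [-0.35 to +0.35] at 6 h and -4.57 [-6.04 to -3.42] at 30 h. None of these UMIs came from a barcode with 2 or more fibroblast markers, of which the set held 1, 0 and 0. Serpina3f was found there as 1, 0 and 0 UMIs and Serpina3g as 5, 5 and 0.

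States of ECs that markers defined gave further contrasts for Serpina3g and Serpina3f. Reactive barcodes, with Pim3, Bcl3 and Tmem252 all detected, numbered 418, 1141 and 390 and held Serpina3g at 109, 128 and 34.7 CPM. The log2 ratio in them at 6 h was +0.23 [+0.09 to +0.38], below the +0.76 over all ECs, and the control level was 3.51-fold that of gCap. In the same barcodes Serpina3f stood at 47.2, 50.5 and 19.7 CPM, with a ratio of +0.10 [-0.13 to +0.33] at 6 h. These barcodes are deep, with medians of 10399, 10097 and 10647 UMIs, since 3 genes had to be detected.

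Interferon-high barcodes, taken like the reactive ones from all gates, with at least 5 of 8 interferon-induced genes detected, held Serpina3g at 46.8, 84.7 and 14.2 CPM, with log2 ratios of +0.86 [+0.72 to +1.00] and -1.72 [-1.99 to -1.45]. Serpina3f in them stood at 28.5, 34.7 and 10.1 CPM. Barcodes high in MHC class II genes held Serpina3g at 49.0, 69.0 and 10.98 CPM [9.65 to 12.4], at 30 h close to the level over all ECs.

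A larger ratio at 6 h than in gCap as a whole was seen in gCap barcodes with at least 2 UMIs of Esm1, a gene of tip cells and activated endothelium. These numbered 67, 89 and 69 and held Serpina3g at 47.1 CPM [30.8 to 69.0], 164 [136 to 195] and 3.28 [0.397 to 11.8], from 26, 126 and 2 UMIs. Serpina3f in them stood at 23.6, 88.3 and 1.64 CPM, from 13, 68 and 1 UMIs. The log2 ratios at 6 h were +1.80 [+1.18 to +2.46] and +1.91 [+1.04 to +2.89], with intervals above that of gCap as a whole. The top barcode of each gene held 18 UMIs at 6 h, and without it Serpina3g stood at 142 CPM and Serpina3f at 65.7 CPM there. For Serpina3f that was 18 of 68 UMIs, and whether its interval stays above that of gCap without this barcode was not tested. At 30 h a count of 2 or 1 in 69 barcodes gave no level apart from that of gCap.

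The UMIs of Serpina3g were concentrated in few barcodes. At least 5 UMIs were found in 169 barcodes of the control, 322 at 6 h and 26 at 30 h, and they held 35.7%, 46.4% and 28.4% of its UMIs. The highest barcode held 32, 40 and 27 UMIs. For Serpina3f 46, 83 and 12 barcodes held at least 5 UMIs, and for Serpina3n 18, 27 and 13. A lower level at 30 h thus went with fewer positive barcodes and fewer barcodes of high count, though a few of high count remained.

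**Figure D3:**
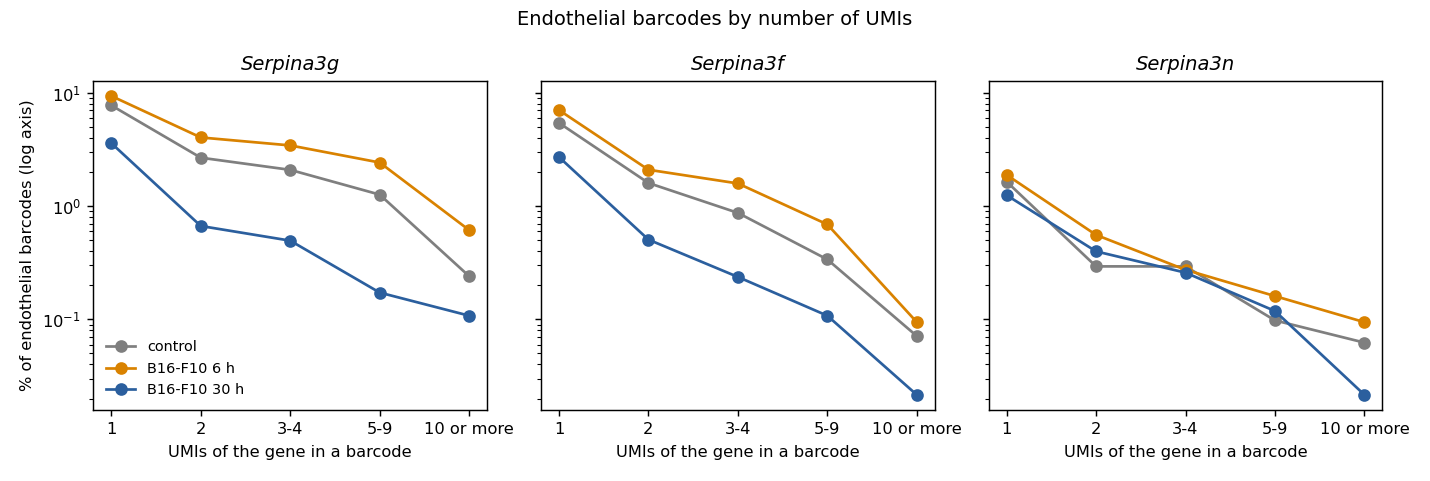
Share of endothelial barcodes (percent, log axis) that held 1, 2, 3 to 4, 5 to 9 or 10 and more UMIs of each gene, for the 3 libraries. Each point is a share of all endothelial barcodes of a library. For Serpina3g and Serpina3f the 30 h line lies below the control and the 6 h line above it in every class, and for Serpina3n the lines cross.

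Serpina3f and Serpina3g were found in the same barcodes more often than their shares multiplied. After thinning to 2000 UMIs, 74, 173 and 10 barcodes held both, where the products of the shares were 17.1, 40.7 and 1.52, or 4.32, 4.26 and 6.59 times as many. Among barcodes with Serpina3f, 24.3% [19.6 to 29.5], 37.9% [33.5 to 42.6] and 10.0% [4.90 to 17.6] also held Serpina3g, against 5.09%, 7.58% and 1.42% of the rest. In gCap alone the counts were 45, 106 and 1 against products of 8.85, 21.3 and 0.293, so in the control and at 6 h the excess was also there within 1 gate. In the control artery, 1 of 8 barcodes with Serpina3f held Serpina3g, a share of 12.5% against 11.4% of the rest. Serpina3g and Serpina3n were together in 10, 18 and 6 thinned barcodes. Serpina3n was found in 1.61% [0.776 to 2.95], 1.94% [1.16 to 3.05] and 4.32% [1.60 to 9.16] of barcodes with Serpina3g, against 0.778%, 0.888% and 0.642% of the rest, and the intervals of the 2 shares were apart at 6 h and 30 h. Serpina3f and Serpina3n were together in 3, 12 and 3 barcodes, and at 6 h 2.63% [1.37 to 4.55] of barcodes with Serpina3f held Serpina3n against 0.906% of the rest. These counts are small, and they pool the gates.

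**Figure D4:**
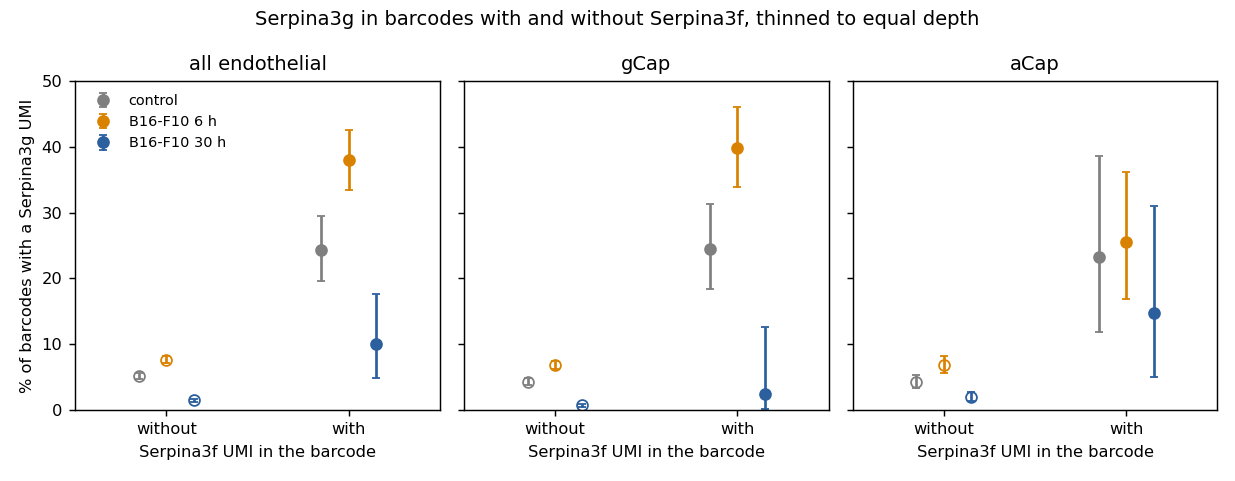
Percent of thinned barcodes with a Serpina3g UMI among those without (open) and with (filled) a Serpina3f UMI, for all endothelial barcodes, gCap and aCap in the 3 libraries, with exact 95% intervals. The filled points of the control and the 6 h library lie above the open points in each panel, and the gCap point at 30 h rests on 1 barcode.

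gCap barcodes with a Serpina3g UMI held more Serpina3f and more of several interferon gamma genes than those without. In the thinned data Serpina3f stood at 91.7 against 10.9 CPM in the control and at 129 against 14.4 CPM at 6 h, in 349 and 568 positive barcodes. Of the interferon gamma genes measured, 18 of 19 in the control and 15 of 21 at 6 h were above 0 in the log2 ratio of positive over negative barcodes, with medians of +0.21 and +0.15, against medians of +0.01 and +0.01 over all genes, of which 51.9% and 51.1% were above 0. STAT3 and IL-6 genes were above 0 in 9 of 10 and 7 of 11, with medians of +0.27 and +0.19. NF-κB genes were above 0 in 6 of 7 and 5 of 8, with medians of +0.26 and +0.29. Immediate early genes were above 0 in 4 of 11 and 2 of 13, with medians of -0.02 and -0.09. At 30 h only 39 gCap barcodes were positive, and 17 of 21 interferon gamma genes, 4 of 5 NF-κB genes, 6 of 10 STAT3 and IL-6 genes and 0 of 11 immediate early genes were above 0, against 55.6% of all genes. Icam1, an adhesion molecule and NF-κB target, had ratios of +0.77 [+0.55 to +0.99] and +0.52 [+0.37 to +0.66]. The genes of a barcode are not independent, and these are descriptions.

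The other Serpina3 copies were scarce. Serpina3m stood at 2.21, 1.43 and 1.44 CPM, from 201, 125 and 117 UMIs, with log2 ratios of -0.63 [-0.96 to -0.30] and -0.62 [-0.97 to -0.29]. Most of it lay in aCap, at 9.14, 5.43 and 5.17 CPM, the gate in which Serpina3n was also highest among capillaries, and without thinning 43 of the 100 aCap barcodes of the control with Serpina3m held Serpina3n as well, against a product of the shares of 7.42. The gene model of Serpina3m begins at the same base as that of Serpina3k and overlaps it, so its counts are uncertain. Serpina3c, Serpina3i and Serpina3k had at most 29 UMIs in a library, Serpina3b had 1 in all and Serpina3a and Serpina3j had 0.

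The members were set against all genes as a background. All 3 passed the limit of a mean of 5 CPM over the libraries, as did 10175 genes. Of these 1.06% were 2-fold or more lower at 30 h than in the control, and Serpina3g and Serpina3f were so while Serpina3n was not. For Serpina3g this follows from its choice, and the other members were taken as its copies. Serpina3g, Serpina3f and Serpina3n ranked 17th, 40th and 1073rd from the lowest ratio. Another 0.983% were 2-fold or more higher, and with median-of-ratios scaling the counts of higher and lower genes were 121 and 81 in place of 100 and 108. At 6 h 0.432% of genes were 2-fold or more higher and 0.157% lower, and none of the members was. From 6 h to 30 h 1.43% were 2-fold or more lower and 1.24% higher, and again Serpina3g and Serpina3f were among the lower ones. The median log2 ratio over all genes was -0.01 at 6 h and -0.07 at 30 h.

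Genes of signalling pathways, stress and hormone responses, target proteases and other serpins are given as lists. The lists were chosen with earlier results known. Their counts above and below 0 are to be read beside those of all genes. The median over all genes was -0.01 at 6 h and -0.07 at 30 h, so most genes were below 0 at both times. The exact share is not given here. Of 30 genes of interferon gamma signalling 27 passed the limit. All 27 were above 0 at 6 h, with a median of +0.35 and only Cxcl10, a chemokine, past 2-fold (+1.15), and at 30 h 12 were above and 15 below 0, with a median of -0.01 and none past 2-fold. The most abundant were B2m, the light chain of MHC class I (+0.08 and 0.00), Irf1, a transcription factor (+0.31 and -0.54), Jak1, a kinase (+0.32 and -0.09), and Iigp1, an interferon-induced GTPase (+0.25 and -0.97).

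Of 18 NF-κB genes 13 passed the limit. At 6 h 12 of the 13 were above 0, with a median of +0.34 and none past 2-fold, and at 30 h 10 were below 0, with a median of -0.21. Nfkbiz, a nuclear regulator, was 2-fold lower at 30 h (+0.34 and -1.03). The most abundant others were the inhibitor Nfkbia (+0.27 and -0.02), Icam1 (+0.47 and -0.88) and the subunit Nfkb1 (-0.02 and -0.33).

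Of 18 genes of STAT3, oncostatin M and IL-6 signalling 14 passed the limit. At 6 h 12 were above 0, with a median of +0.50, and Bcl3 (+1.35) and Bcl6 (+1.38), regulators of transcription, were past 2-fold. At 30 h 13 of the 14 were below 0, with a median of -0.46, and the acute phase protein Lcn2 (-2.12) and the kinase Pim1 (-1.02) were past 2-fold. Junb stood at +0.58 and -0.44, Cebpd at +0.33 and -0.48, Socs3, the feedback inhibitor, at +0.62 and -0.50, and the receptor chain Lifr at -0.48 and -0.37.

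The list of immediate early and heat shock genes, known to respond to tissue digestion too, were above 0 at 6 h in 14 of 14, with a median of +0.58, and below 0 at 30 h in 13 of 14, with a median of -0.46. Past 2-fold at 6 h were Atf3 (+1.61), Hspa1a (+2.34) and Hspa1b (+2.69). The abundant Jun was at +0.04 and -0.43, Fos at +0.59 and -0.80 and Jund at +0.32 and -0.16. By its medians this list, like the NF-κB and STAT3 lists, had the order of libraries of Serpina3g and Serpina3f, and its part in the result was not tested.

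Glucocorticoid-responsive genes split. At 6 h 8 of 14 were above 0, with a median of +0.04, and at 30 h 9 of 14 were below 0, with a median of -0.31. The metallothioneins Mt1 (+1.63 and -2.44) and Mt2 (+2.03 and -1.94) had the order of Serpina3g, with wider swings. Zbtb16, a transcription factor, was at -1.13 and +0.13, Sult1a1, a sulfotransferase, at -1.19 and -1.52, and Fkbp5, a chaperone, at -0.87 and -1.49. Dusp1 was at +0.16 and +0.01, Klf9 at -0.70 and -0.39 and Sgk1 at +0.09 and -0.25.

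Few of the target proteases and the serpins of other families were measured. Of 14 proteases that Serpina3 products are known or thought to inhibit, 4 passed the limit and none was past 2-fold. Ctsl stood at -0.12 and -0.07, Ctsb at -0.01 and +0.40, Ctsc at +0.35 and -0.30 and Ctsh at -0.29 and +0.19. Of 27 other serpins 8 passed, with medians of +0.01 and -0.02 and none past 2-fold. Serpinh1, a collagen chaperone, was at +0.89 and +0.85. Serpinb6a (+0.03 and -0.03) and the granzyme inhibitor Serpinb9 (+0.15 and -0.13) were near 0.

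**Figure D5:**
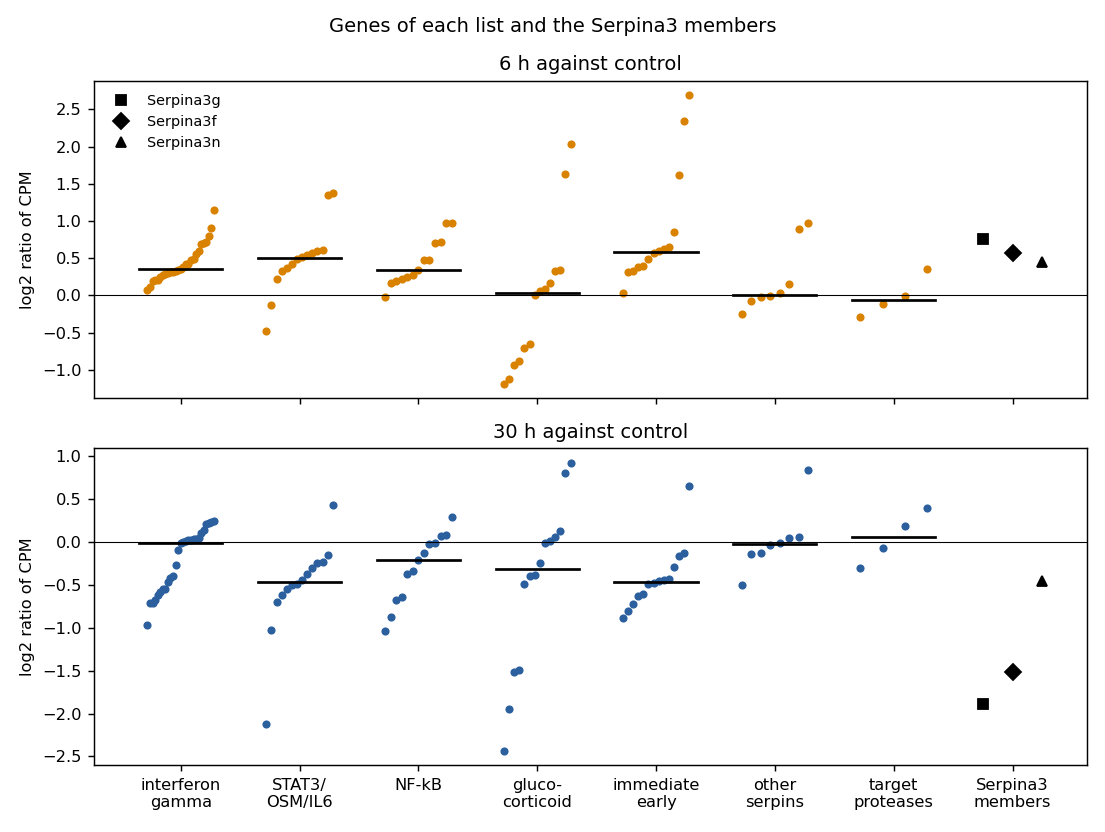
Log2 ratios of CPM to the control at 6 h (upper) and 30 h (lower) for the genes of 7 lists that passed a mean of 5 CPM and for the 3 members. Each point is a gene, ordered by its ratio within a list, and the bars are list medians. At 30 h Serpina3g, which was chosen for its low level there, and Serpina3f, taken as its copy, lie below the medians of all 7 lists. Some single genes of the lists, such as Mt1 and Lcn2, lie lower than both.

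Over 12 points (gCap, aCap, artery and vein in the 3 libraries) the genes most like each member were ranked by Pearson's r of log2 CPM with 5 CPM added, among 6952 genes, as a description, since the points share libraries. Most like Serpina3g were Mt1 (r = 0.95), the inflammatory caspase Casp4 (0.92), Prkd1 (0.91) and the kinase Ripk2 (0.89). Most like Serpina3f were Rabgef1 (0.92), Dtx3l (0.92), Klf6 (0.91), Dnajb9 (0.91) and Gadd45g (0.91). Most like Serpina3n, with lower values, were Snx7 (0.88), Cavin3 (0.88), Ezr (0.87), A4galt (0.86) and Golm1 (0.86). Serpina3f and Serpina3g had r = 0.91 with each other, while Serpina3n had 0.29 with Serpina3f and 0.14 with Serpina3g.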

How the data were processed

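Each of the 3 libraries was deposited as a matrix of UMI counts per gene and barcode, which the authors made with Cell Ranger 7.2.0 per the file headers on the mouse build mm10. An older version is named in the methods, and whether intronic reads were counted is not given in the sources used here. The processing notes also name Seurat 4.4.0. The matrices list 1792904 to 1911655 barcodes, most of them empty droplets.

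Counts were summed over barcodes with 1000 to 5000 genes (limits the study's methods give) and under 20% mitochondrial UMIs, with at least 2 UMIs of Pecam1 and Cdh5, and scaled to CPM. Gates needed at least 3 UMIs over at least 2 of 4 or 5 markers (gCap 2 UMIs over 2 of 4, and no other gate). Doublets were not removed except as an alternative. Exact Poisson, conditional binomial and Clopper-Pearson intervals were used, and no test, because each group had 1 library. The ratios and their intervals were run on simulated Poisson counts of summed libraries. That simulation held no spread between barcodes or mice, so it could not test the intervals against it. The 30 h library holds time and treatment together. The members, lists and gates were chosen with earlier results of these data known. The genes named were the members, the other Serpina3 genes, the 4 most abundant genes of each list with any past 2-fold at 6 h or 30 h against the control, and the 5 most like each member. Some of the genes this rule names are not reported here. Icam1 in positive barcodes, the wider lymphatic set and levels without a top barcode were chosen after their values were seen.

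Of the gene identifiers in the files, 32235 of 32285 were found in GENCODE M21 (GRCm38), and promoters came from RefSeq (GRCm38.p6). Alternatives were other limits on genes, mitochondrial UMIs and markers, doublet removal (scanpy 1.11.5), other scalings, thinning, subtraction of free RNA, gCap alone, class weights and a pseudocount of 1 CPM, and 3 more were added after the data were seen. Python 3.11.15, numpy 2.4.6, scipy 1.17.1, pandas 2.3.3 and Biopython 1.88 were used.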

Additional observations from a re-analysis of the deposited data

Results flagged for a closer look

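Serpina3n moved in opposite directions between gates at 30 h against the control. The log2 ratio was +1.39 in vein, -3.13 in barcodes with the lymphatic gate alone and -0.43 in aCap. The difference between the gates was not tested, since each is 1 library against another. The vein value rests on barcodes with fibroblast markers, and without them vein stood at 2.93 CPM in the control and 2.99 at 30 h. The lymphatic value rests on 35 and 3 UMIs in 42 and 24 barcodes.

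Serpina3n was also found outside the endothelial barcodes. In the fibroblast reference barcodes of the 30 h library it stood at 570.7 CPM, above the 303.6 CPM of the control, from 120 and 73 UMIs in 20 and 28 barcodes. A single 30 h barcode held 43 of these UMIs and a single control barcode 16. Without the top barcode of each library the levels were 393.5 CPM [311 to 492] and 251.7 CPM [191 to 326], and the intervals overlapped. The shares of these barcodes with a UMI were 65.0% and 60.7%.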

How the results depend on the processing

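Each ratio of a member was recomputed under 17 alternatives, of which 3 (free RNA at 5%, the top barcode left out, and lymphatic, mixed and fibroblast-marked barcodes left out) were chosen after seeing the data. The direction held for Serpina3g and Serpina3f under all of them, between +0.73 and +0.91 and between -2.52 and -1.75 for Serpina3g, and between +0.54 and +0.73 and between -1.81 and -1.32 for Serpina3f (log2, 6 h and 30 h). In gCap alone the ratios were +0.91 and -2.52 for Serpina3g, -1.81 for Serpina3f at 30 h, and +0.89 and +0.24 for Serpina3n, so its 30 h direction reversed there. Thinning gave +0.73 and -1.35 for Serpina3f. Subtracting 10% of free RNA gave +0.83 for Serpina3g at 6 h. With a lower minimum of genes per barcode and no maximum, Serpina3g at 30 h was -1.75 and Serpina3n was +0.83 and -0.24. Without barcodes that held markers of other types, Serpina3f at 30 h was -1.32 and Serpina3n was +0.067 and -0.71. Serpina3n was +0.72 at 6 h with class weights, and +0.23 and -0.18 without lymphatic, mixed and fibroblast-marked barcodes. The causes were not tested. Genes 2-fold higher and lower numbered 2639 and 2368 at 6 h and 2835 and 3048 at 30 h among all with 1 UMI, and 17 and 8, then 42 and 61, above a mean of 20 CPM, where fewer genes were counted. No paired analysis was possible because each group had 1 library. Few UMIs limit Serpina3n in gCap, artery and lymphatic barcodes.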
